A study of Mus musculus with 16 samples.

Results

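The nuclear genes of oxidative phosphorylation encode most subunits of the 5 respiratory complexes of the mitochondrion. They were taken here as every symbol of the mouse count tables that begins with Nduf followed by a, b, c, s or v, with Uqcr, with Cox4 to Cox8 or with Atp5, together with Sdha, Sdhb, Sdhc and Sdhd. Pseudogene symbols ending in -ps were left out, and each gene was represented by its transcript with the highest mean count. This gave 92 genes of 47451 symbols, drawn from 383 transcript rows, and 87 of them passed the filter on low counts in both tables.

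The libraries came from a ribosome pull-down in the mouse retina at postnatal day 60. Opn4-Cre, expressed from the melanopsin locus of intrinsically photosensitive retinal ganglion cells (ipRGCs), switches on an HA-tagged ribosomal protein, Rpl22-HA, and anti-HA beads then recover the RNA bound to tagged ribosomes. The first table held HA IP and HA input from Opn4-Cre; Rpl22-HA mice, and untagged IP and untagged input from Opn4-Cre mice that lack the tag, with 2 libraries in each group. The retinas of an animal were combined into a lysate, per the protocol, and an input was 1.5% of it, taken before the beads. The second table held 4 IP libraries of Brn3bcKO retinas (Opn4-Cre; Rpl22-HA; Brn3bcKO-AP) and 4 of control retinas (Opn4-Cre; Rpl22-HA, labelled Brn3b WT), so that Cre and the tag were present on both sides. Brn3b (Pou4f2) is a transcription factor of retinal ganglion cells (RGCs), and in these mice Cre removes it after the ipRGCs have left the cell cycle. In each of those groups 3 libraries were labelled male and 1 female, whereas all 8 libraries of the first table were labelled as pooled male and female. That label conflicts with a lysate from a single animal, so the number of animals behind each library of the first table is not known.

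Complex I (NADH dehydrogenase, the Nduf genes) and complex II (succinate dehydrogenase, the Sdh genes) pass electrons to ubiquinone. Complex III (the Uqcr genes) moves them on to cytochrome c and complex IV (the Cox genes) to oxygen. Complexes I, III and IV pump protons across the inner membrane, and complex V (ATP synthase, the Atp5 genes) uses the gradient to make ATP. All of complex II and most subunits of the others are nuclear genes whose mRNAs are read by cytosolic ribosomes, while 13 subunits are encoded in the mitochondrial genome and read by mitochondrial ribosomes, which carry no Rpl22. Photoreceptors and RGCs are among the cells of the retina with a high demand for ATP.

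Known regulators of these genes bind short motifs near the transcription start, and the stretches that hold 2 of these motifs are shown because they are features the choice of genes did not use. RefSeq windows on GRCm38.p6, from 250 bases before to 50 after the start, were at hand for 76 of the 92 genes. The NRF1 motif, a palindrome of 10 letters given in capitals in the stretches, was in 7 of the 76 windows (9.21%), against 0.971% of all 32851 windows and 1.33% of the 21263 of protein-coding genes. The 7 stretches of 30 bases follow, in the direction of the gene.
Atp5g2 (chr15:102671070-102671099, - strand): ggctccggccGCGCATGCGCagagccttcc
Atp5k (chr5:108434430-108434459, - strand): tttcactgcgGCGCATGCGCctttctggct
Cox6a1 (chr5:115349101-115349130, - strand): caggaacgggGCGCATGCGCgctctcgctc
Ndufa11 (chr17:56717692-56717721, + strand): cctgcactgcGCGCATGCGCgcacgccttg
Ndufaf4 (chr4:24897960-24897989, + strand): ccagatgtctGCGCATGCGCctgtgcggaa
Ndufaf5 (chr2:140170652-140170681, + strand): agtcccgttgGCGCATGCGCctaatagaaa
Uqcrc1 (chr9:108936668-108936697, + strand): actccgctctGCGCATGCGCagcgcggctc

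The YY1 motif AAGATGGC was in 11 windows (14.5%), against 2.75% of all windows and 3.05% of those of protein-coding genes. In 9 of the 11 the match began at or after the annotated start, and in 10 it lay on the strand of the gene. The motif contains ATG, and whether matches fell on the start codons of these genes was not tested. Stretches of 7 of the 11 genes follow, with the motif in capitals. Atp5f1 is the 1 gene that holds it on the opposite strand, where it reads GCCATCTT, and the other 6 hold it on their own strand just after the start.
Atp5f1 (chr3:105959248-105959277, - strand): atgtgcgagcgGCCATCTTgctcctgcccc
Atp5j2 (chr5:145191500-145191529, - strand): accaggacttcAAGATGGCgtcactcggtg
Ndufa9 (chr6:126849097-126849126, - strand): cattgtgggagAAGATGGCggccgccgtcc
Ndufc1 (chr3:51408915-51408944, - strand): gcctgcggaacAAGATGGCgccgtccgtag
Ndufs4 (chr13:114388045-114388074, - strand): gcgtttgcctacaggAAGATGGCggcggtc
Ndufs6 (chr13:73328433-73328462, - strand): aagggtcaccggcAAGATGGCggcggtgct
Ndufs7 (chr10:80249462-80249491, + strand): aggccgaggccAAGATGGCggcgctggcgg

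The ETS motif CCGGAAG was in 17 windows (22.4%, against 8.86% of all and 11.6% of protein-coding windows) and the ERR motif AAGGTCA in 8 (10.5%, against 4.72% and 4.08%). The SP1 motif GGGCGG was in 33 (43.4%, against 35.7% and 46.2%). Both strands were searched for each motif. The median GC content of the windows was 57.5% for the 76 genes, 52.7% for all genes and 56.3% for protein-coding genes. Transcripts higher in HA IP than in HA input were 5 of the 7 genes with the NRF1 motif, 13 of 17 with ETS and 7 of 11 with YY1, against 27 of 42 with none of these 3. With SP1 they were 20 of 32, with 1 lower, and with ERR 4 of 8. Over all tested members 59 of 87 were higher, and over all tested transcripts 23%. Differences between the motifs were not tested.

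The libraries of the first table held 2332612 to 14512132 counts and those of the second 12994498 to 20350881. RGC markers stood at 4475 to 4812 summed CPM (counts scaled to the size of the library) in HA IP against 757 to 807 in HA input, and 14 of 14 were called higher. ipRGC markers summed to 196 to 212 CPM in HA IP against 45.9 to 58.6 in HA input, and 5 of 7 were called higher. Trpc6 and Trpc7 were not, at log2 fold changes of 0.15 and 0.0013. The ipRGC photopigment gene Opn4 had 35.3 and 35.9 CPM in HA IP against 1.19 and 1.50 CPM in HA input. Cone markers, 10 of 11 called higher, summed to 8331 to 10185 CPM in HA IP against 1670 to 1730 in HA input, so the HA IP libraries held cone RNA as well as RGC RNA. Rod markers summed to 13178 to 14772 CPM in HA IP against 47473 to 52747 in HA input, and all 12 were lower. In bulk samples of this kind, fewer cells of a type and less RNA per cell cannot be told apart. Across all of their transcripts, 4 Y-linked genes together had 19 and 0 counts in untagged IP and 0 and 0 in untagged input, while the HA libraries held 356 to 934, which goes against the label of pooled sexes. Comparisons with the untagged libraries therefore cannot be told apart from the sex of the animals. No list of cell markers was at 0 in any group, and the part that cell mixture played in the results below was not tested.

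The chosen transcripts of the nuclear oxidative phosphorylation genes made up a larger share of HA IP than of HA input. These 92 transcripts, 1 per gene, took 1.15 to 1.25% of all counts in HA IP, against 0.791 to 0.847% in HA input. The other transcripts of the same genes, among 383 rows, were not summed. Over the 92 transcripts, CPM after TMM scaling, as used throughout, were 13449 and 12185 in HA IP, against 8078 and 8282 in HA input. In untagged IP the sums were lower, at 3079 and 3163 CPM, against 8430 and 8047 CPM in untagged input. The 2 inputs were alike in level, and the IPs with and without the tag lay on opposite sides of them.

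**Figure D1:**
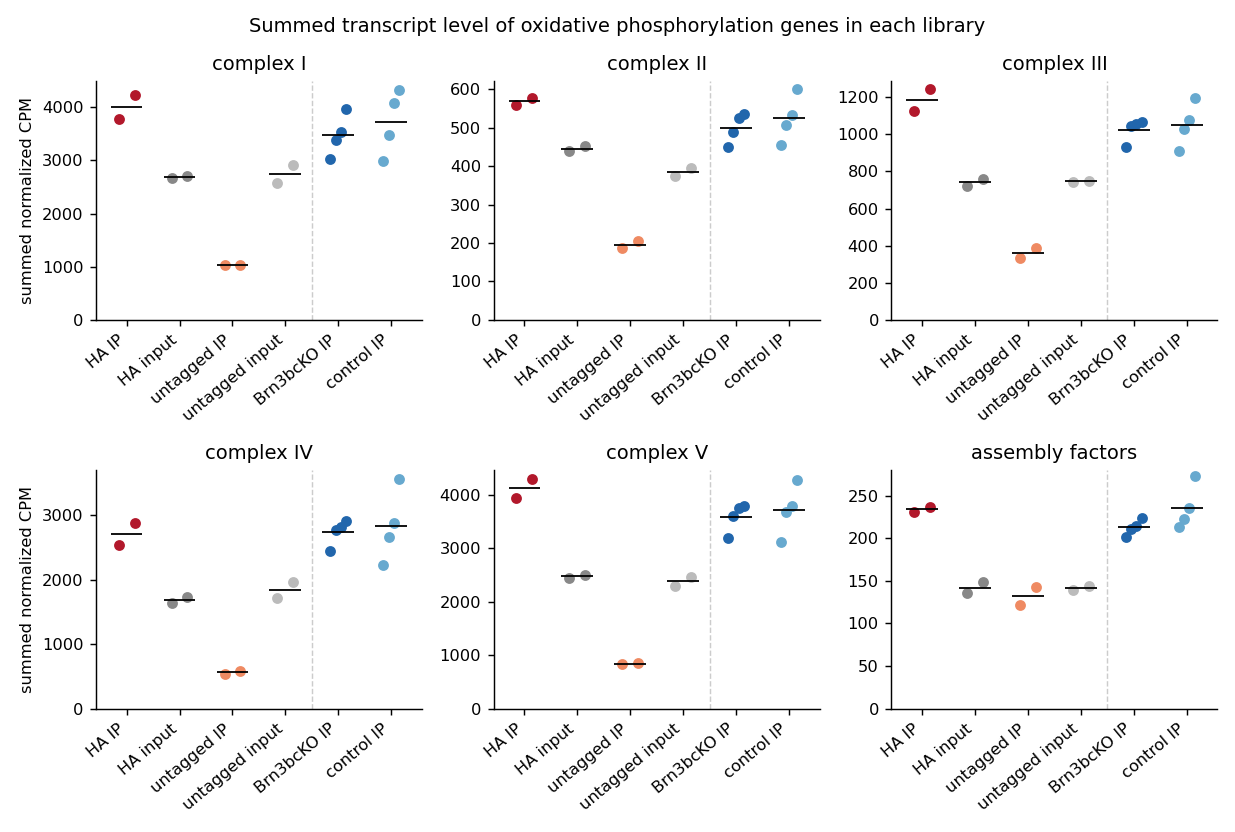
Summed normalised CPM of the nuclear genes of complexes I to V and of the assembly factors (y axes) in each library (points), with the group mean as a bar; groups run along the x axes. In every panel HA IP lies above HA input, in the 5 panels of complexes untagged IP lies below every other group, and Brn3bcKO and control libraries overlap.

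Gene by gene, 59 of the 87 tested transcripts were higher in HA IP than in HA input at an adjusted p under 0.05 (edgeR quasi-likelihood test, Benjamini-Hochberg over 45189 transcripts), and 1 was lower. Among all transcripts tested, 23% were higher and 11.5% lower. The median log2 fold change was 0.70 over the 87 genes, which is 1.63-fold, against 0.185 over all transcripts, and 16 genes were called higher at more than 2-fold, against 13.7% of all. The count rested on single libraries, since 27 genes were called higher without HA IP replicate 1 and 39 without HA input replicate 1.

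Called genes lay in all 5 complexes. In complex I, 21 of 36 genes were higher (median 0.57), in complex II 3 of 4 (0.85), in complex III 6 of 8 (0.56), in complex IV 11 of 15 with 1 lower (0.74) and in complex V 12 of 16 (0.72). Of 8 complex I assembly factors, the Ndufaf genes and Atp5sl, 6 were higher (0.64). Complex sums did not overlap between HA IP and HA input, with only 2 libraries in each group. How often other sets of genes do so was not counted. Complex I stood at 4221 and 3783 CPM in HA IP against 2677 and 2705 in HA input, and complex V at 4302 and 3949 against 2455 and 2498.

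**Figure D2:**
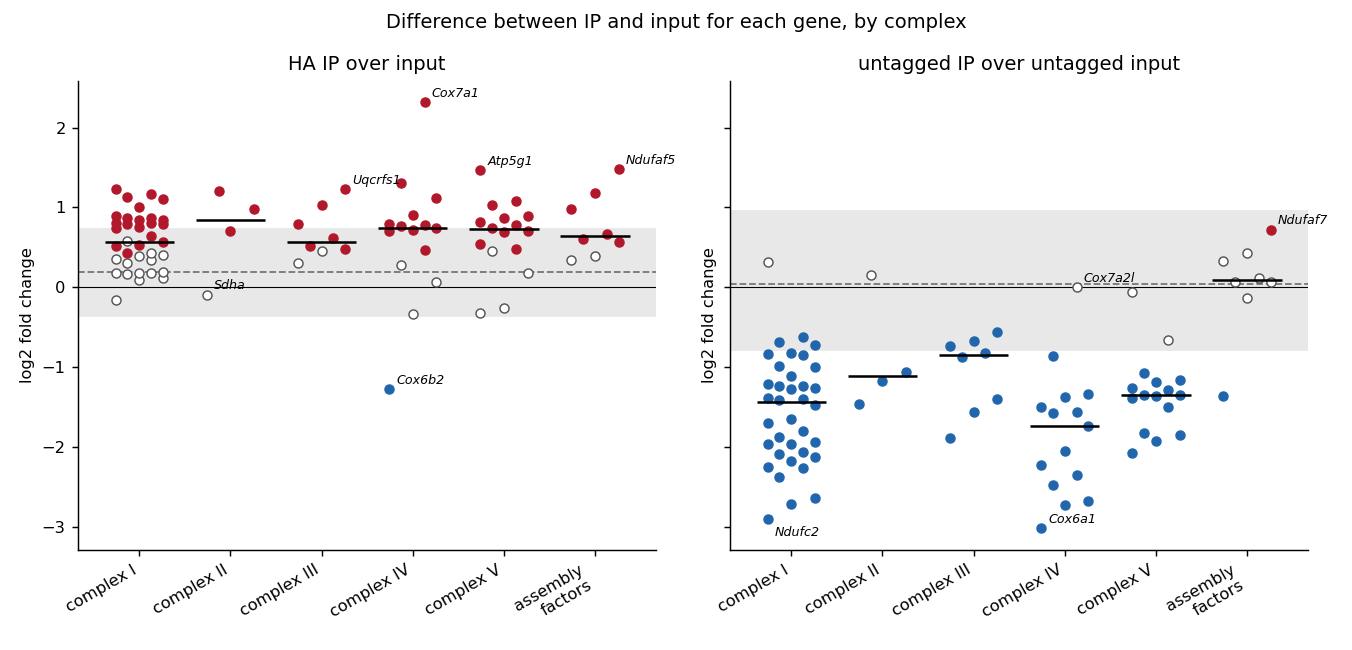
Log2 fold change of each gene (points, filled red where called higher and blue where called lower at an adjusted p under 0.05) by complex, for HA IP over HA input (left) and untagged IP over untagged input (right). Black bars are medians of the sets, the dashed line is the median of all tested transcripts and the grey band their quartiles; medians are 0.56 to 0.85 on the left and −1.74 to −0.85 for the complexes on the right.

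In complex I, 6 of 7 core subunits, which carry the electron path, were higher (median 0.85), and 15 of 29 accessory ones (0.52). The difference between the 2 classes was not tested. Ndufs8, an iron-sulfur core subunit (chr19:3908867-3912734, − strand, GRCm38), had 106 and 99.5 CPM in HA IP against 47.5 and 48.4 CPM in HA input. The log2 fold change was 1.10 ± 0.17 (SE, edgeR adjusted p = 6.39e-05). Ndufs1, the largest core subunit of the electron-input arm, had 81.0 and 80.1 CPM in HA IP against 43.8 and 44.5 CPM in HA input (0.87 ± 0.15, edgeR adjusted p = 0.000255). Ndufv1, which binds NADH, had 178 and 163 CPM in HA IP against 117 and 113 CPM in HA input (0.56 ± 0.18, edgeR adjusted p = 0.0214). The call on Ndufv1 was lost with DESeq2 size factors (adjusted p = 0.0555), and its adjusted p reached 0.338 with a library left out. In all 3 of these core genes both HA IP libraries lay above both inputs, and the share of all transcripts that do so was not counted.

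Ndufs4, an accessory subunit whose loss causes a Leigh-like disease in mice, was the complex I gene of smallest p. It had 122 and 110.3 CPM in HA IP against 49.2 and 49.8 CPM in HA input (1.23 ± 0.15, edgeR adjusted p = 8.63e-06). Ndufa9, which sits near the junction of the 2 arms, had 107 and 97.8 CPM in HA IP against 42.5 and 48.6 CPM in HA input (1.17 ± 0.16, edgeR adjusted p = 3.12e-05). Ndufab1, the mitochondrial acyl carrier protein, had 49.4 and 42.0 CPM in HA IP against 20.2 and 21.5 CPM in HA input (1.13 ± 0.18, edgeR adjusted p = 9.6e-05). Ndufs4 and Ndufa9 hold the YY1 stretches printed above. At the other end, Ndufb7 had 54.3 and 53.3 CPM in HA IP against 61.7 and 58.9 CPM in HA input, with a log2 fold change of −0.17 ± 0.15 that did not pass the test (edgeR adjusted p = 0.429).

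In complex II, 3 of the 4 subunits were called. Sdhd, a membrane anchor (chr9:50596357-50603812, − strand), had 84.7 and 91.8 CPM in HA IP against 38.6 and 38 CPM in HA input (1.21 ± 0.16, edgeR adjusted p = 1.6e-05). Sdhb, the iron-sulfur subunit, had 154 and 140.4 CPM in HA IP against 72.6 and 76.0 CPM in HA input (0.99 ± 0.18, edgeR adjusted p = 0.000319). Sdha, the flavoprotein that oxidises succinate, had 287 and 279 CPM in HA IP against 299.9 and 305 CPM in HA input, with a log2 fold change of −0.10 ± 0.15 (edgeR adjusted p = 0.667). Among the 4 genes of complex II, Sdha was the 1 whose HA IP libraries lay below the inputs, and the difference between Sdha and its partners was not tested.

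In complex III the Rieske iron-sulfur protein Uqcrfs1 (chr13:30540308-30545362, − strand) was raised most, with 219 and 199 CPM in HA IP against 84.0 and 94.4 CPM in HA input (1.23 ± 0.16, edgeR adjusted p = 1.38e-05). Both core proteins were also called. Uqcrc2 had 165 and 150.2 CPM in HA IP against 75.7 and 78.4 CPM in HA input (1.03 ± 0.16, edgeR adjusted p = 9.9e-05). Uqcrc1, which holds the NRF1 stretch printed above, had 331 and 294 CPM in HA IP against 215 and 223 CPM in HA input (0.51 ± 0.15, edgeR adjusted p = 0.0152), and its call was lost with DESeq2 size factors (adjusted p = 0.0533, and up to 0.419 with a library left out). Uqcr10 and Uqcr11, small accessory subunits, had log2 fold changes of 0.45 ± 0.18 and 0.31 ± 0.16 that did not pass the test.

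In complex IV, 10 of the 11 subunit forms found in most tissues were higher. Cox7b (chrX:106015700-106022450, + strand) had 148 and 132 CPM in HA IP against 54.6 and 58.6 CPM in HA input (1.30 ± 0.17, edgeR adjusted p = 1.09e-05). Cox5a had 303 and 265 CPM in HA IP against 125 and 135 CPM in HA input (1.12 ± 0.16, edgeR adjusted p = 3.64e-05). Cox8a, the smallest nuclear subunit, was at the edge, with 323 and 264 CPM in HA IP against 211 and 213 CPM in HA input (0.47 ± 0.17, edgeR adjusted p = 0.0375, and 0.124 with DESeq2 size factors and up to 0.709 with a library left out). Ndufa4, once counted with complex I and now known as a subunit of complex IV, had 281 and 258 CPM in HA IP against 211 and 233 CPM in HA input (0.28 ± 0.17, not called). Cox7a2l, which helps join complexes into supercomplexes, had 105 and 95.7 CPM in HA IP against 97.3 and 94.2 CPM in HA input, a log2 fold change of 0.07 ± 0.15.

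In complex V the called genes covered the catalytic head (F1, 4 of 5), the peripheral stalk (4 of 4), the c ring (2 of 3) and the membrane accessory subunits (2 of 3). Atp5b, the catalytic beta subunit (chr10:128083273-128090391, + strand), was the most abundant gene of the set by CPM, with 1565 and 1462 CPM in HA IP against 919.8 and 942 CPM in HA input (0.70 ± 0.16, edgeR adjusted p = 0.00219). Atp5a1, the alpha subunit, had 680.1 and 590.5 CPM in HA IP against 439 and 435 CPM in HA input (0.54 ± 0.16, edgeR adjusted p = 0.012). Without HA IP replicate 1 the calls on both were lost, at 0.25 and an edgeR adjusted p of 0.384 for Atp5a1 and an adjusted p of 0.0826 for Atp5b, and that on Atp5a1 was also lost on leaving out any other HA library or either untagged IP. In the stalk, Atp5o had 257 and 241 CPM in HA IP against 121 and 115 CPM in HA input (1.08 ± 0.15). Atp5f1, with the opposite-strand YY1 stretch, had 340.5 and 321 CPM in HA IP against 158 and 165 CPM in HA input (1.03 ± 0.16). Atp5l, a small membrane subunit, had 39.1 and 35.1 CPM in HA IP against 43.3 and 45.3 CPM in HA input, a log2 fold change of −0.26 ± 0.17 that did not pass the test.

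The assembly factors build complex I and are not part of the finished enzyme. Ndufaf5, which hydroxylates Ndufs7, had 32.1 and 33.1 CPM in HA IP against 11.9 and 11.5 CPM in HA input (1.48 ± 0.18, edgeR adjusted p = 6.38e-06), the smallest p of its group, and its NRF1 motif begins after the annotated start of transcription. Ndufaf2 had 25.1 and 23.2 CPM in HA IP against 10.2 and 11.1 CPM in HA input (1.18 ± 0.26, edgeR adjusted p = 0.00196). Ndufaf7, a methyltransferase, had 24.7 and 26.0 CPM in HA IP against 13.9 and 11.8 CPM in HA input (0.98 ± 0.23, edgeR adjusted p = 0.003). Its values are uncertain, because a stretch of near-identical sequence lies in Zfp397, whose count was 104% of that of Ndufaf7 in the first table, and the call was lost without replicate 2 of HA IP or of HA input (adjusted p up to 0.0591).

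Several subunits exist as paralogous forms, and the forms did not move together. Levels of different genes were compared as CPM per kilobase of spliced transcript. Cox4i1, the common form of subunit 4, averaged 836 CPM per kb in HA IP against 493 in HA input, whereas Cox4i2, the form known from lung and induced by low oxygen, averaged 19.5 in HA IP against 24.6 in HA input. Cox6b1, the common form of subunit 6b, averaged 235 in HA IP against 135 in HA input, and Cox6b2, known from testis, 1.77 in HA IP against 4.33 in HA input. Cox7a2, the common form of subunit 7a, averaged 227 in HA IP against 136 in HA input, and Cox7a1, known from heart and muscle, 21.7 in HA IP against 4.32 in HA input. In each pair the common form was the more abundant in both groups.

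Cox7a1 (chr7:30184144-30186030, + strand) showed the largest rise of the 87 genes. It had 9.12 and 7.91 CPM in HA IP against 1.78 and 1.62 CPM in HA input, a log2 fold change of 2.32 ± 0.35, or 4.98-fold (edgeR adjusted p = 6.87e-05). Cox6b2 was the 1 gene called lower, with 0.938 and 1.02 CPM in HA IP against 2.14 and 2.66 CPM in HA input (−1.28 ± 0.46, edgeR adjusted p = 0.0367), and its call was lost under DESeq2 (adjusted p = 0.11). Cox4i2 had 13.9 and 14.5 CPM in HA IP against 18.3 and 17.6 CPM in HA input, a difference that did not pass the test (−0.34 ± 0.19, edgeR adjusted p = 0.191). Among these 3 genes the direction was up in Cox7a1 alone.

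The 3 Atp5g genes encode the same mature c-ring protein behind different import sequences. Atp5g3 averaged 279.7 CPM per kb in HA IP against 151 in HA input, Atp5g1 142 against 51.2 and Atp5g2 3.58 against 4.48. Near-identical sequence of Atp5g2 lies in 2 other genes, of which 0 were counted, and the effect of shared reads on its level was not tested. Atp5g1 had 90.0 and 78.7 CPM in HA IP against 32.9 and 28.2 CPM in HA input, the smallest p of complex V (1.47 ± 0.17, edgeR adjusted p = 3.39e-06). Atp5g3 had a log2 fold change of 0.89 ± 0.16 (edgeR adjusted p = 0.000362), and Atp5g2, although it holds an NRF1 stretch, −0.32 ± 0.34 (edgeR adjusted p = 0.5).

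The 5 genes that the filter left out were tissue forms or a paralogue. Over the 8 libraries of the first table Cox6a2 had 3 counts, Cox7b2 had 4, Cox8b 28, Cox8c 0 and Ndufa4l2 29. Over the second table they had 7, 6, 11, 0 and 10. These levels were too low to compare between groups.

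**Figure D3:**
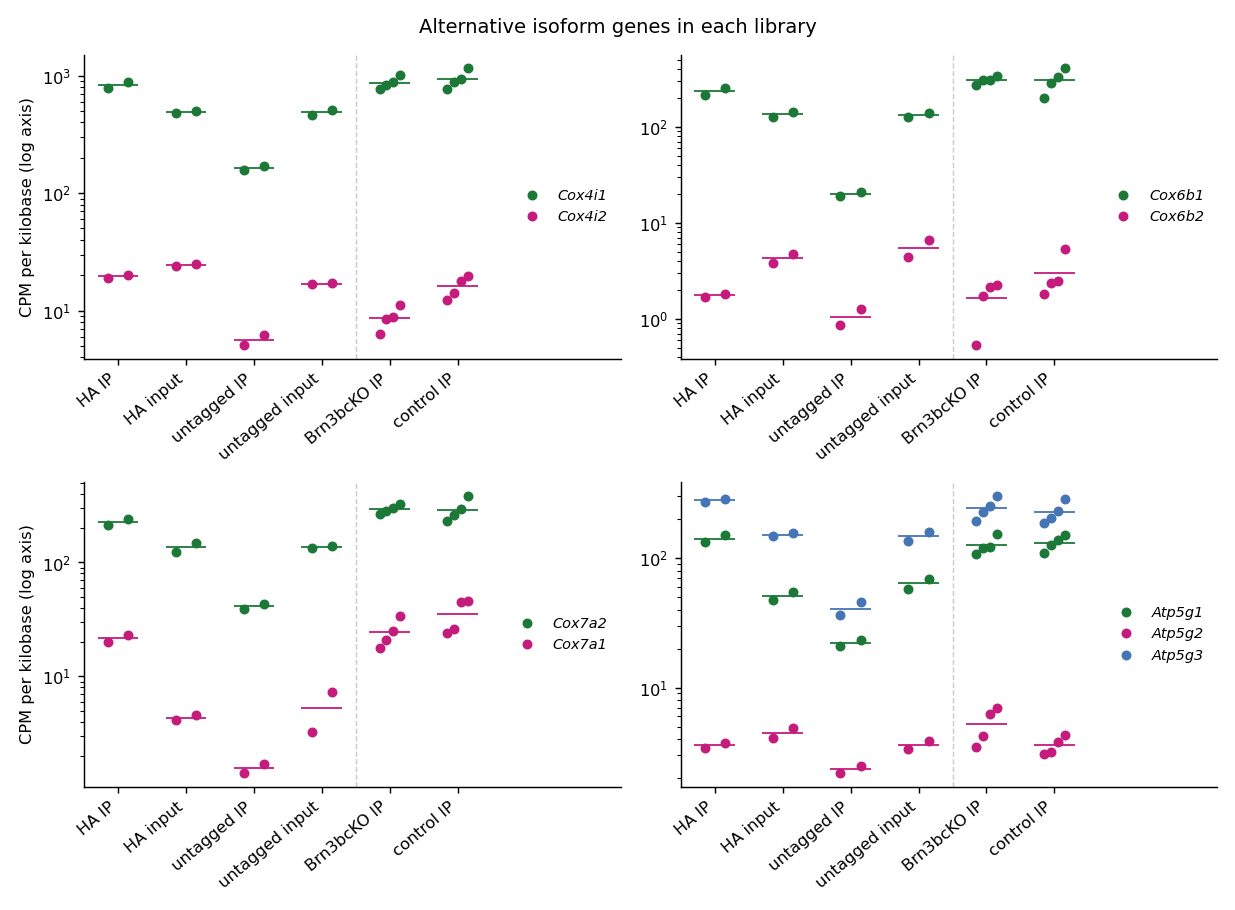
Level in CPM per kilobase of spliced transcript (log axis) of the common and tissue forms of 3 complex IV subunits and of the 3 c-ring genes, with 1 point per library, group means as bars and the groups along the x axis. Cox4i1, Cox6b1 and Cox7a2 lie above their partners in every library, and Cox7a1 alone of the tissue forms is higher in HA IP than in HA input.

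Without the tag the direction was the opposite. In untagged IP over untagged input, 75 of the 87 genes were lower and 1, Ndufaf7 with its shared sequence, was higher (a call lost under DESeq2), against 23.8% lower and 27.5% higher among all transcripts tested. The median was −1.37, a 2.58-fold lower level in untagged IP, against 0.043 over all transcripts, and 62 genes were lower by more than 2-fold, against 16.6% of all. In complex I 35 of 36 genes were lower (median −1.44), in complex II 3 of 4 (−1.12), in complex III 8 of 8 (−0.85), in complex IV 14 of 15 (−1.74) and in complex V 14 of 16 (−1.35). The assembly factors stood apart with a median of 0.09 and 1 of 8 lower.

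Cox6a1, the common form of subunit 6a, was the most reduced gene, with 18.8 and 21.5 CPM in untagged IP against 158 and 169 CPM in untagged input (−3.02 ± 0.17, edgeR adjusted p = 5.09e-10). Ndufc2 had 9.19 and 7.06 CPM in untagged IP against 57.7 and 63.1 CPM in untagged input (−2.91 ± 0.19). Cox5a had 21.0 and 21.1 CPM in untagged IP against 152 and 121 CPM in untagged input (−2.68 ± 0.18), a 6.43-fold lower level. Members that did not pass the test included Ndufs1, with 50.3 and 50.9 CPM in untagged IP against 38.2 and 42.6 CPM in untagged input, and Sdhd, with 48.1 and 50.3 CPM in untagged IP against 39.0 and 47.9 CPM in untagged input. Cox7a2l had 82.5 and 91.3 CPM in untagged IP against 81.3 and 91.6 CPM in untagged input. In Ndufs1 and Sdhd both untagged IP libraries lay above both inputs by less than the test could separate, in Cox7a2l the groups overlapped, and in Cox6a1, Ndufc2 and Cox5a they were far apart.

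**Figure D4:**
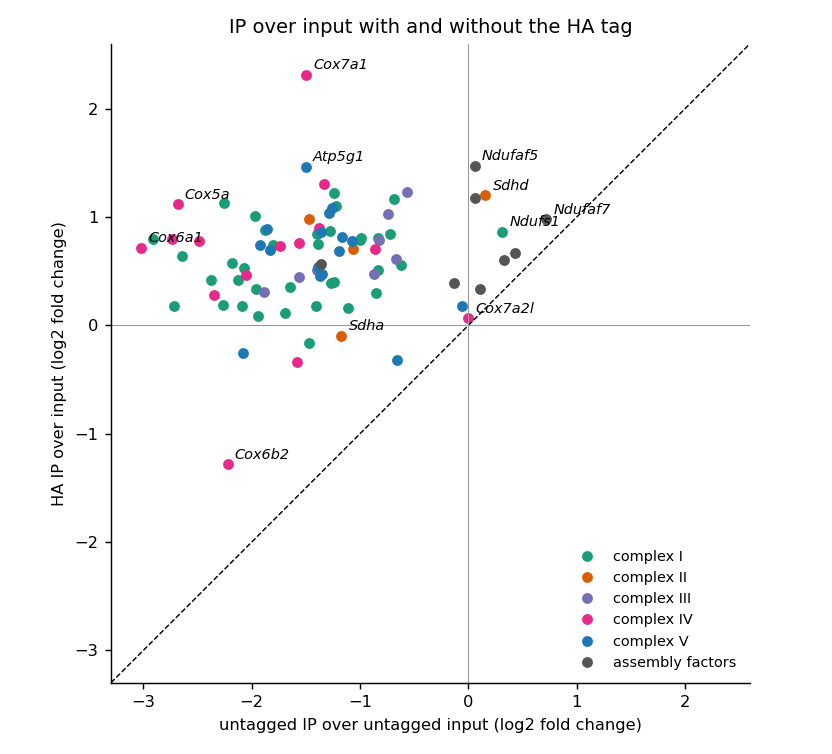
Log2 fold change of IP over input for each of the 87 genes with the tag (y axis, HA IP over HA input) and without it (x axis, untagged IP over untagged input), coloured by complex. The dashed line marks equal change, and all 87 genes lie above it, by 0.07 to 3.81.

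The difference between the 2 comparisons was itself tested. The HA-dependent enrichment, which is the log2 fold change of HA IP over HA input minus that of untagged IP over untagged input, was positive and called in 77 of 87 genes and negative in 0, against 20.7% called higher and 17.6% lower among all transcripts. Its median was 1.93, a 3.81-fold difference, against −0.053 over all transcripts. Called genes were 35 of 36 in complex I (median 2.14), 4 of 4 in complex II (1.42), 8 of 8 in complex III (1.78), 13 of 15 in complex IV (2.52), 14 of 16 in complex V (1.96) and 3 of 8 among assembly factors (0.40). The largest were Cox7a1 and Cox5a at 3.81, followed by Cox6a1 at 3.74 and Ndufc2 at 3.71, and the smallest was Cox7a2l at 0.07 ± 0.22. Sdha, not called in HA IP over input, had 1.08 ± 0.22 (edgeR adjusted p = 0.000895), and the untagged fall in it was −1.17 ± 0.16.

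Transcript length differed from that of other genes. The median spliced length was 908 bases for the members against 2612 for tested protein-coding transcripts. Short transcripts were lower in untagged IP generally: between 500 and 1000 bases the median over all protein-coding transcripts was −0.70 and over the members −1.72, and between 2000 and 4000 bases −0.10 and −0.95. For HA IP over input the medians between 500 and 1000 bases were 0.21 over all and 0.68 over the members. Across the 87 genes the Spearman correlation of length was 0.51 with the untagged fold change and 0.106 with the HA one, given as a description across genes that share libraries.

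The second comparison, Brn3bcKO over control, asked whether removal of Brn3b from ipRGCs changed these transcripts. The targeted gene itself, Pou4f2, had 18.6, 24.7, 33.6 and 33.8 CPM in Brn3bcKO IP against 36.5, 44.3, 53.1 and 63.9 CPM in control IP, so the groups did not overlap (log2 fold change −0.84 ± 0.22, edgeR adjusted p = 0.085). Several marker lists moved with genotype. Cone markers stood at 8506 to 12014 summed CPM in Brn3bcKO against 4290 to 7442 in control with 6 of 11 called higher. Rod markers stood at 10133 to 16231 CPM in Brn3bcKO against 7093 to 9511 in control with 0 of 12 called, and amacrine markers at 154 to 176 CPM in Brn3bcKO against 114 to 141 in control with 0 called. RGC markers stood at 2518 to 3464 CPM in Brn3bcKO against 4061 to 5636 in control with 2 of 14 called lower. ipRGC markers overlapped, at 172 to 256 CPM in Brn3bcKO against 208 to 292 in control with 1 of 7 called lower. The part of these lists in the values below was not tested.

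Of the 87 genes, 0 passed an adjusted p of 0.05 (edgeR quasi-likelihood test over 43975 transcripts), against 0.432% higher and 0.737% lower among all transcripts. At an unadjusted p under 0.05 there were 3 members, against 15.3% of all transcripts, and 3 members had libraries that did not overlap, against 9.59%. DESeq2 called 1 member higher and 1 lower. The median log2 fold change was −0.10, against 0.03 over all transcripts, with 26 genes above 0 and 61 below. Summed CPM were 12433, 10246, 11557 and 11922 in Brn3bcKO against 12465, 9902, 11707 and 14232 in control, or 11539 ± 934 and 12077 ± 1795 (SD, n = 4 each).

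By complex the libraries of Brn3bcKO and control overlapped throughout, and the mean of every set was lower in Brn3bcKO. The differences between these means were not tested. Complex I averaged 3475 ± 395 CPM in Brn3bcKO against 3717 ± 605 CPM in control, complex II 499.6 ± 39 against 525 ± 61 and complex III 1025 ± 62 against 1053 ± 119. Complex IV averaged 2734 ± 205 against 2828 ± 553 CPM and complex V 3593 ± 270 against 3718 ± 478 CPM. The assembly factors averaged 213 ± 9 CPM in Brn3bcKO against 236 ± 26 CPM in control (SD, n = 4 each). A p that misses the threshold does not show that the levels were equal.

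**Figure D5:**
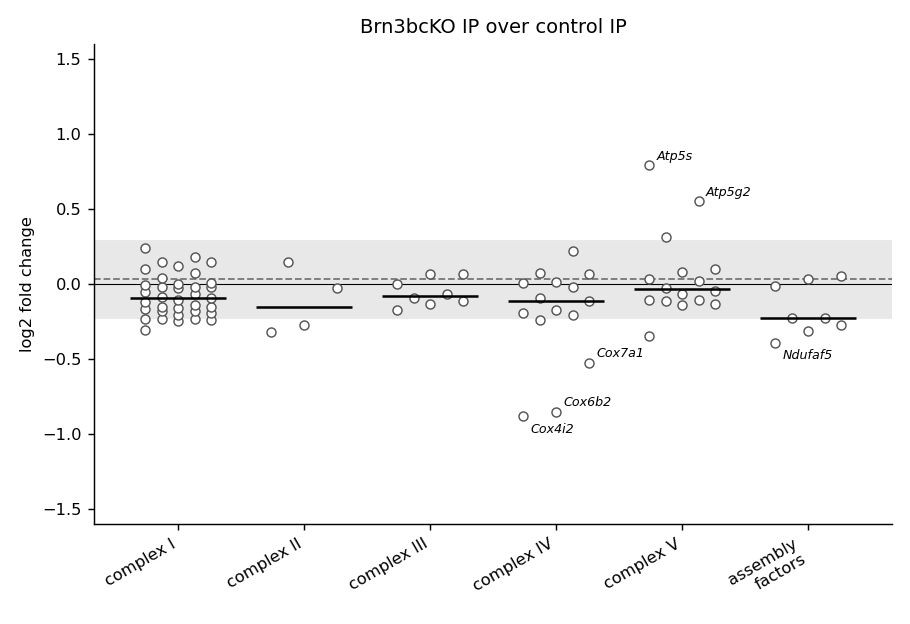
Log2 fold change of Brn3bcKO over control for each tested gene (points) by complex, with the median of each set as a black bar and the quartiles of all tested transcripts as a grey band. Most genes lie within 0.4 of 0, and Cox4i2 (−0.88), Cox6b2 (−0.85) and Atp5s (0.79) lie farthest out.

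The 3 genes whose libraries did not overlap were low or moderate in level. Cox4i2 (chr2:152754173-152765037, + strand) had 4.60, 8.08, 6.34 and 6.18 CPM in Brn3bcKO against 13.0, 8.94, 10.3 and 14.4 CPM in control, and every Brn3bcKO library lay below every control library. Its log2 fold change was −0.88 ± 0.22 (95% confidence interval −1.36 to −0.40), a 1.85-fold lower level (edgeR adjusted p = 0.073, and 0.00971 to 0.221 over the alternatives). Over the same libraries Cox4i1, the common form, had 778, 585, 678 and 638 CPM in Brn3bcKO against 712, 589, 678 and 884 CPM in control (−0.10 ± 0.18). Per kilobase, Cox4i2 averaged 8.67 CPM in Brn3bcKO against 16 CPM in control.

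Atp5s, coupling factor B of ATP synthase (chr12:69724962-69744658, + strand), had 5.95, 10.0, 8.04 and 7.43 CPM in Brn3bcKO against 5.37, 3.49, 4.46 and 4.82 CPM in control. Every Brn3bcKO library lay above every control library, and the log2 fold change was 0.79 ± 0.23 (95% confidence interval 0.30 to 1.28), or 1.73-fold (edgeR adjusted p = 0.112, and 0.0339 to 0.274 over the alternatives). Ndufaf5 had 30.7, 25.2, 27.1 and 27.2 CPM in Brn3bcKO against 31.3, 31.6, 38.6 and 43.1 CPM in control (−0.39 ± 0.16, edgeR adjusted p = 0.272), with the highest Brn3bcKO library just below the lowest control library. Atp5g2 had 2.54, 3.11, 5.04 and 4.59 CPM in Brn3bcKO against 2.23, 2.33, 2.77 and 3.17 CPM in control (0.55 ± 0.28, edgeR adjusted p = 0.371), and its groups overlapped. Atp5f1 had 300.4, 227, 219.8 and 234 CPM in Brn3bcKO against 294, 286, 315 and 356 CPM in control (−0.35 ± 0.17, edgeR adjusted p = 0.337), and the first Brn3bcKO library reached into the control range.

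Other parts of the pathway were read from lists outside the rule, whose counts in HA IP over input stand beside 23% higher and 11.5% lower over all transcripts. Of the 13 mitochondrially encoded subunits, 8 could be tested, and in HA IP over input 6 were lower and 1 higher (median −1.72), among them mt-Cytb of complex III at −3.71 and mt-Nd4 of complex I at −2.71. In untagged IP over untagged input 4 of the 8 were higher and 2 lower (median 0.66), against 27.5% and 23.8% of all transcripts. The HA-dependent enrichment was negative and called in all 8 (median −2.34), against 17.6% of all. Cytochrome c (Cycs) and a complex III subunit outside the rule, cytochrome c1 (Cyc1), were both called higher. They stood at 1.26 and 0.83 in HA IP over input. Of 17 genes of the tricarboxylic acid cycle and pyruvate entry, 13 were higher and 1 lower (median 0.89), with Pdha1, a subunit of pyruvate dehydrogenase, at 1.30 and Suclg1, of succinyl-CoA ligase, at 1.26. Of 11 carriers and channels, 8 were higher and 1 lower, with Ckmt1, mitochondrial creatine kinase, at 1.45 and Vdac3, an outer membrane channel, at 1.09. Of 37 assembly factors outside the rule 15 were higher and 2 lower. Of 14 regulators of mitochondrial genes 4 were higher, such as Esrrg at 1.15, a share near that of all transcripts. Another 4 were lower, such as Esrrb, known from rods, at −1.34, against 11.5% of all. In Brn3bcKO over control 0 genes of these lists were called by edgeR, against 0.432% higher and 0.737% lower over all transcripts.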

How the data were processed

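RNA from mouse retina was measured by translating ribosome affinity purification and Smart-seq3 sequencing, with paired reads of 37 bases, in 16 libraries. The values used are raw counts per transcript as deposited by the authors in 2 tables of 8 libraries and 117860 transcripts, on build mm10 per the submitters' processing notes. No source used here names the annotation release, and 17 transcripts were listed more than once. Transcript coordinates and lengths were taken from GENCODE on GRCm38, in which all 92 members matched and 91 kept their symbol.

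Members, gene lists and tests were chosen with earlier results of these data known, so the lists carry no p of their own. Each table was fitted in R 4.3.3 with edgeR 4.0.16 (filterByExpr, TMM, glmQLFit and glmQLFTest), over all its groups, with Benjamini-Hochberg adjustment across every transcript tested. Calls used an adjusted p under 0.05. DESeq2 1.42.0 served as an alternative. In simulated counts, 100 transcripts at each of 2 sizes of change were altered, all with a mean count of at least 50. The fit of HA IP over input recovered 70% of those changed by a log2 of 1 and 99% of those changed by 2. That of Brn3bcKO over control recovered 38% and 98%. Far more transcripts were called in HA IP over input, and none below that count was changed in the simulation. These rates therefore need not hold for the genes reported. The methods' selection of transcripts higher in HA IP than in untagged IP was kept as an alternative, because it uses the outcome; all 87 tested members pass it. Genes named with values were core subunits, paralogous forms, and up to 3 members of smallest p per complex and comparison among those with a mean count of at least 50. Ndufb7 and Atp5l, and the 5 promoter motifs, were added after values were seen. The main fits used the group alone and did not pair IP with input. Only in the alternative called the replicate block were IP and input of the same genotype and number taken as coming from the same lysate. The protocol saves an input from each lysate, but the labels do not state it for these libraries. The deviations of such libraries from their group means correlated at 0.024 with the tag and 0.094 without it.

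Reads shared by near-identical copies cannot be assigned. A search with blastn 2.17.0 found a stretch of at least 100 bases at 97% identity or more in another gene for 22 members, and in 3 of them a copy was counted at over 10% of the member in the first table, at 104% of Ndufaf7, 123% of Ndufc1 and 12.9% of Ndufs5. For Cox6c the transcript of highest count is annotated as a retained intron. Replicates differed beyond sampling noise, with a chi-square per degree of freedom of 2.72 to 42.4, so none was merged.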

Additional observations from a re-analysis of the deposited data

Results flagged for a closer look

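In 77 of the 87 genes the log2 fold change of IP over input was higher with the tag than without it by the test of the difference itself, and in 0 it was lower. The animals behind the 2 comparisons also differ in their Y-linked and Xist counts, and their part in this was not tested.

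In 4 of 118 groups of 4 libraries a library lay far from the other 3 by Dixon's test. That share is no larger than the about 5% expected by chance. Sdhd stood at 110 CPM in Brn3bcKO replicate 1, with the other 3 at 64.4 to 71.6 CPM. Ndufb9, a complex I accessory subunit, stood at 122 CPM in the same library, with the others at 103 to 106 CPM. Summed complex III stood at 933 CPM in Brn3bcKO replicate 2, with the others at 1047 to 1066 CPM. Cox6a2, the muscle form of subunit 6a, was at 0.238, 0.148, 0.0566 and 0 CPM in Brn3bcKO, and in control at 0.072 CPM in replicate 4 and 0 in the other 3. The flagged value in control rests on 1 count.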

How the results depend on the processing

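All set medians for HA IP over input, untagged IP over untagged input and the HA-dependent enrichment kept their sign under every alternative run. For HA IP over input the count of 59 higher moved to 49 with DESeq2, 51 with DESeq2 size factors, 52 with total counts, 48 with no filter, 66 with the methods' selection and 61 with the replicate block, and leaving out 1 library gave 27 to 61. The lower count of 1 was 0 with DESeq2, 0 with 1 transcript per symbol, 2 with no filter, 5 with only the 2 groups compared and 0 to 4 leaving out a library (4 without either untagged IP). Medians over all members and complexes I and II and the assembly factors were 0.59, 0.46, 0.74 and 0.53 with DESeq2 size factors, 0.60, 0.47, 0.75 and 0.54 with total counts, 0.59, 0.46, 0.74 and 0.53 with DESeq2, and 0.58, 0.46, 0.74 and 0.53 with no filter. With only the 2 groups they were 0.52, 0.39, 0.67 and 0.46, and 0.39 in complex III and 0.55 in V. The median of all transcripts was 0.185 with TMM, 0.076 with DESeq2 size factors and 0.089 with total counts. Leaving out a library gave medians of 0.44 to 0.73 over all members, 0.32 to 0.61 in I, 0.60 to 0.91 in II, 0.32 to 0.60 in III, 0.48 to 0.83 in IV, 0.48 to 0.79 in V and 0.45 to 0.89 in assembly factors.

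For untagged IP, complex IV stood at −1.79 (DESeq2 size factors), −1.80 (total counts), −1.78 (DESeq2) and −1.57 (no filter), the count higher was 0 with DESeq2, and leaving out a library gave 0 to 1 higher, 70 to 75 lower, and medians of −1.44 to −1.32 over all, −1.31 to −1.0 in II, −1.16 to −0.68 in III and −2.13 to −1.74 in IV. The call on Ndufaf7 was lost without untagged IP replicate 2 or untagged input replicate 1. For the HA-dependent enrichment, complex IV stood at 2.22 with no filter, and leaving out a library gave 76 to 77 higher and medians of 1.70 to 2.01 over all, 1.92 to 2.27 in I, 1.18 to 1.48 in II, 1.47 to 1.84 in III, 2.23 to 2.57 in IV, 1.73 to 2.18 in V and 0.20 to 0.59 in assembly factors. For Brn3bcKO, DESeq2 called 1 higher and 1 lower (Atp5s, adjusted p = 0.0339, and Cox4i2, adjusted p = 0.00971), as did the methods' selection, 1 and 1, and no filter gave 1 lower (Cox4i2); leaving out a library gave 0 to 0. The cause of these changes was not tested.

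In the second table the labels do not state whether the numbers pair the samples, and the correlations do not settle it. Same-numbered deviations correlated at 0.481, 0.286, 0.076 and 0.037. Brn3bcKO replicates 1, 2 and 4 correlated best with the control of their own number, and replicate 3 with control replicate 4 (0.138). Control replicates 3 and 4 correlated best with another number (0.195 and 0.138). With the replicate block, 0 members were called in Brn3bcKO over control, while over all transcripts 687 were higher and 762 lower, against 190 and 324 without it. In the first table the replicate block gave 61 higher and 1 lower, 1 and 75 without the tag, and 77 and 0 for the difference, and it changed no other count by over 1.5 times. The least deep library, untagged input replicate 1, held 2332612 counts.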
